A study of Mus musculus with 6 samples.

Results

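Libraries of sorted tuft cells from the mouse ileum, for which no infection is labelled, held RNA of most genes of the interferon response. The genes described are 40 of the 23420 in the expression table, chosen by name as the receptors of interferons, the transcription factors of the pathway and interferon-stimulated genes. They comprise 6 receptor genes, 8 genes of Stat2 and interferon regulatory factors, 4 sensors of viral nucleic acid, 3 genes of the Isg15 pathway, 3 Ifit genes, 4 Oas genes, 9 other antiviral effectors and 3 guanylate-binding protein genes. The rule used gene names and no measured value, but the list was chosen with earlier results of these data known. The data came from 6 libraries of a single group, labelled as mouse replicates 1 to 6. The cells were sorted from the distal small intestine of C57BL/6J mice carrying the Gfi1b-eGFP reporter, in which GFP marks cells that use Gfi1b, a transcription factor gene active in tuft cells. The gate took GFP+ EpCam+ CD45- cells that excluded propidium iodide, so every library carries the reporter allele and passed the same selection. The labels name no infection, treatment or individual age, and no cells outside the gate and no interferon-treated cells stand beside them.

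Interferons are cytokines that cells release when they sense viral nucleic acid. Type I interferons signal through the receptor of Ifnar1 and Ifnar2, type II interferon through Ifngr1 and Ifngr2, and type III interferons, which act mostly on epithelia, through Ifnlr1 and Il10rb. The type I and III receptors activate a complex containing Stat2 and Irf9 that binds the interferon-stimulated response element, whereas type II interferon acts mainly at the gamma-activated site. Tuft cells are rare chemosensory epithelial cells, known in the gut for responses to parasites and protists and as a target cell of murine norovirus.

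The regulatory sequences of the members were read from RefSeq, mouse build GRCm38.p6, as windows of 250 bases before to 50 bases after the start of a gene. The core of the interferon-stimulated response element, searched as GAAANNGAAA on both strands, was present in 14 of the 32 members that had a window (43.8%). Of all 27025 genes with a window, 3.99% held it. These 14 members were 12 interferon-stimulated genes and both Stat2 and Irf2, and no receptor gene. The 6 members with more than 1 match are shown, as the 250 bases upstream of the start with the matches in capitals. Neighbouring matches overlap in Isg15, Oas1a, Bst2 and Gbp3, and in Ifit1, Ifit3 and Gbp3 the core lies on the opposite strand and therefore reads as its reverse complement.
Isg15: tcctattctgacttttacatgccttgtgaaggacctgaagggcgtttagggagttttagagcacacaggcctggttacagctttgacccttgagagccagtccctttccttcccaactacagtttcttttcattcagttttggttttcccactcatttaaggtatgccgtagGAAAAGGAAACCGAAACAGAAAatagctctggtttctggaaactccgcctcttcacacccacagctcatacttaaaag
Oas1a: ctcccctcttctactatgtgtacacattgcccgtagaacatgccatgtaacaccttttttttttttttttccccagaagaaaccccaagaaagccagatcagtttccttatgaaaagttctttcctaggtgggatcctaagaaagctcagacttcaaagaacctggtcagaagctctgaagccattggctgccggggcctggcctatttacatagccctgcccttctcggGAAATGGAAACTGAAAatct
Bst2: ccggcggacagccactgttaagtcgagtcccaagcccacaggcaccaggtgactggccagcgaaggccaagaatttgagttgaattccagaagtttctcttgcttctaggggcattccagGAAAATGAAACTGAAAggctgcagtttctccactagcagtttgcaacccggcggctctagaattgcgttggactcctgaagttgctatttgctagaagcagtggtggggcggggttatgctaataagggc
Ifit1: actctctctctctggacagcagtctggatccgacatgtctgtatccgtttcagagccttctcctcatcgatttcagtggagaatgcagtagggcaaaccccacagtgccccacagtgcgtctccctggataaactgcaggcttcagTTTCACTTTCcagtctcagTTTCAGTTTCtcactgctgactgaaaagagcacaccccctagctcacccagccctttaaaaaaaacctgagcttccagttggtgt
Ifit3: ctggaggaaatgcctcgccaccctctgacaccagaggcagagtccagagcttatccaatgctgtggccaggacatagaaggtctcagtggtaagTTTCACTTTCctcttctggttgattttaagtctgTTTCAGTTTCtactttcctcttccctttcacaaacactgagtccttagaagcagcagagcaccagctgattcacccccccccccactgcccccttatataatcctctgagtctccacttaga
Gbp3: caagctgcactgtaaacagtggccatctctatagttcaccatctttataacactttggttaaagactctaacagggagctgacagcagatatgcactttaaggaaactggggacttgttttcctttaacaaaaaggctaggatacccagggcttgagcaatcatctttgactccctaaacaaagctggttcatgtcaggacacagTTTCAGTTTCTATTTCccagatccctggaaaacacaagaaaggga
On the minus strand these windows are chr4:156200819-156201068 for Isg15, chr5:120907526-120907775 for Oas1a and chr8:71537473-71537722 for Bst2. On the plus strand they are chr19:34640639-34640888 for Ifit1, chr19:34583279-34583528 for Ifit3 and chr3:142559794-142560043 for Gbp3. Counted from the start as 0, the 3 cores of Isg15 spanned bases -78 to -57 as a single run, and those of Ifit1 lay at -104 to -95 and -85 to -76. The gamma-activated site, searched as TTCNNNGAA, was present in 12 of the 32 members (37.5%) and in 9.55% of all genes with a window, and it overlapped the first core of Bst2 by its last bases. The octamer ATGCAAAT, bound by POU-domain factors, occurred only in Irf3 among the members (3.13%, against 1.97% of all genes). A match describes letters and was not tested as a binding site.

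**Figure D1:**
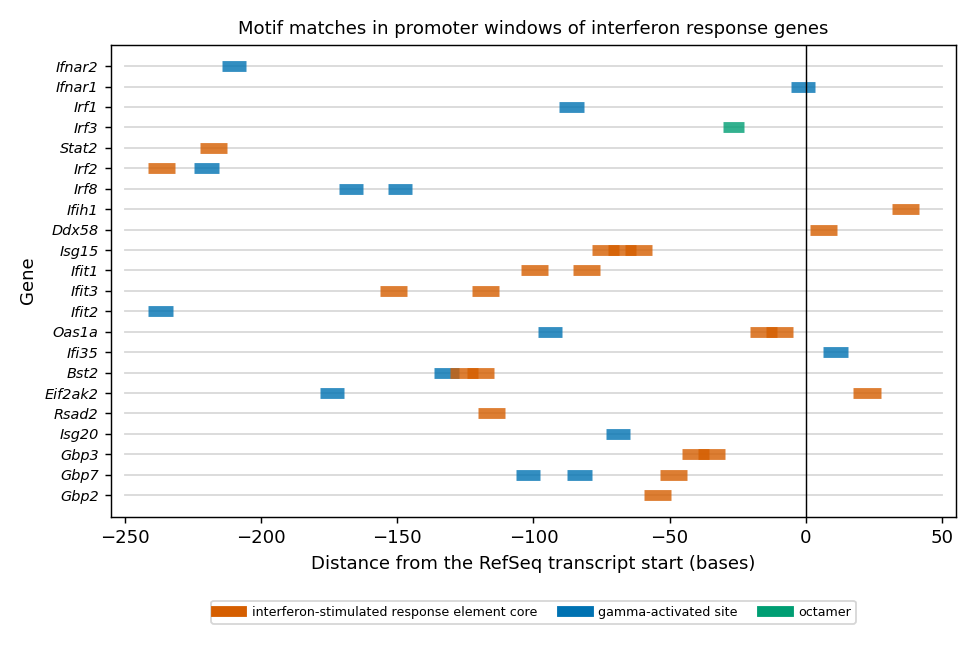
Matches to the interferon-stimulated response element core (orange), the gamma-activated site (blue) and the octamer (green) in the promoter windows of members, with the distance from the start site in bases on the horizontal axis and 1 line for each gene with a match. The 3 overlapping cores of Isg15 lie between -78 and -57.

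Expression was given as TPM, the share of all transcripts assigned to a gene after correction for transcript length, scaled to the same total in each library. Levels can therefore be set side by side between genes within a library, as far as the length correction holds. The sequencing depth is unknown and 0 means only that a gene is listed at 0. Between 13044 and 13308 genes were above 0 per library, and Rn45s, the ribosomal RNA precursor, took 23.1% to 32.6% of the TPM. Of 14 tuft cell markers, 13 were in the table and all were above 0 in every library, with a summed level of 7136 to 12022 TPM. Markers of other cells were present too. Summed levels were 3645 to 21845 TPM for the Paneth cell list (7 of 7 above 0 in every library), 1053 to 5118 TPM for goblet cells (7 of 7) and 7757 to 16298 TPM for enterocytes (8 of 8). The leukocyte list had 9 of 16 genes above 0 in every library, with Ms4a1 at 0 throughout, and a sum without Ptprc of 40.9 to 277 TPM, highest in replicates 5 and 6. Gzma was the largest part of this sum in those libraries, at 141 and 158 TPM. Not all genes of the list followed, and Cd3d was at 0.98 and 1.18 TPM there against 3.85 TPM in replicate 1. Ptprc itself averaged 112 TPM, highest in replicate 1 (171 TPM) and lowest in replicate 6 (74.2 TPM).

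As a list, the interferon response genes were broadly detected. In all 6 libraries 36 of 40 (90%) were above 0, where 47.2% of all genes were, and 29 of 40 (72.5%) averaged at least 10 TPM, where 29.8% of all genes did. The median of the 40 mean levels was 29.0 TPM. Irf5, Ifit2, Isg20 and Gbp2 were at 0 in at least 1 library. The 4 members averaging at least 100 TPM were Irf7, Il10rb, Irf1 and Ifngr2. In the order of all 40 by mean level, neighbours were mostly not separable. The higher gene was higher in every library for 3 of 39 neighbouring pairs (Irf1 over Ifngr2, Ifi35 over Isg15 and Ifih1 over Xaf1), and the within-library difference exceeded its SD for these and for Irf7 over Il10rb.

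**Figure D2:**
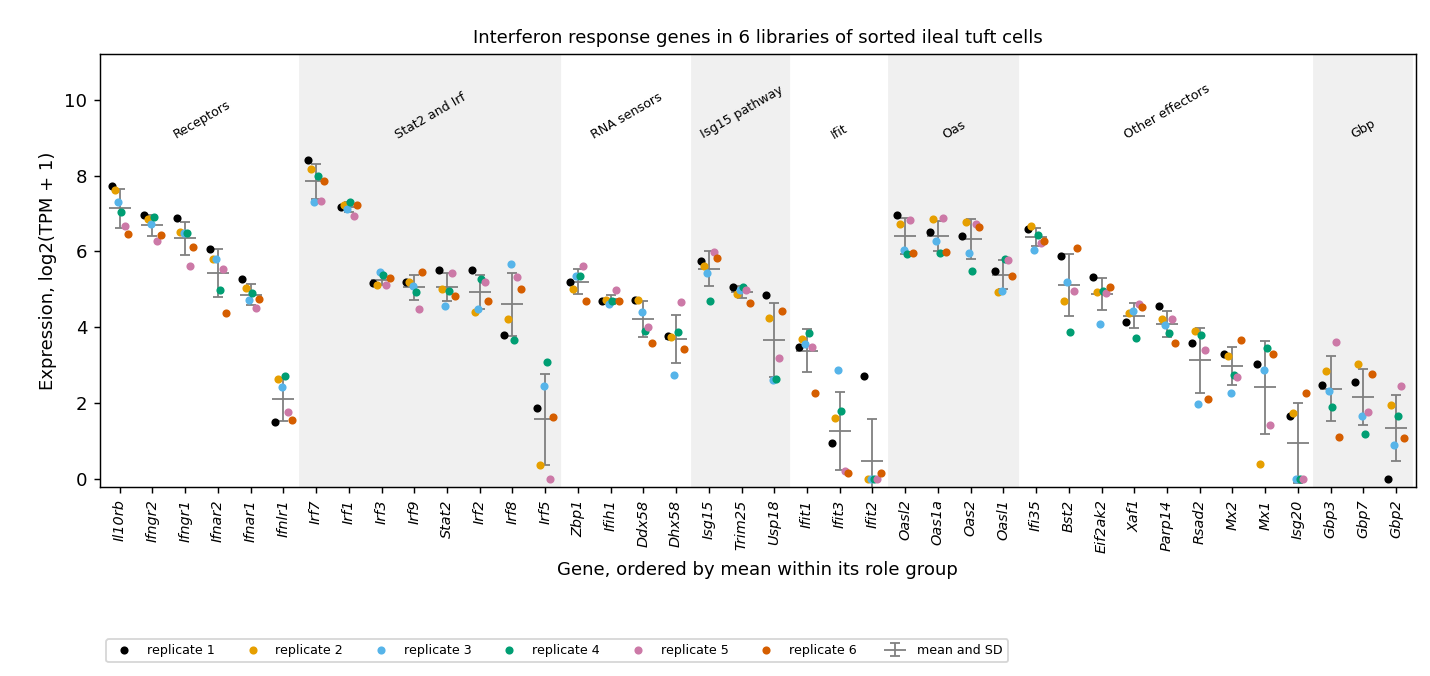
Expression of the 40 genes as log2(TPM + 1) in each of the 6 libraries (coloured points) with the mean and SD over libraries (grey), grouped by role. Irf7, Il10rb and Irf1 lie highest, and Ifnlr1 and Ifit2 lie lowest in the receptor and Ifit groups.

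Both chains of the type I and type II receptors were expressed, and the specific chain of the type III receptor was the least abundant receptor gene. Il10rb, the chain that the type III receptor shares with the interleukin 10 receptor family, was the most abundant receptor gene at 210.3, 194, 157, 130.5, 101 and 86.7 TPM in replicates 1 to 6 (147 ± 49.8 TPM, SD, n = 6, chr16:91406164-91425834). Ifnlr1, which binds type III interferon, was at 1.82, 5.22, 4.39, 5.60, 2.40 and 1.92 TPM (3.56 ± 1.71 TPM, chr4:135686287-135708181). The lowest library of Il10rb lay far above the highest of Ifnlr1. Within libraries Il10rb exceeded Ifnlr1 by 5.03 ± 0.63 in log2(TPM + 1) in 6 of 6 libraries, a TPM ratio of 23.3 to 116 (p = 0.03125, exact permutation of signs, two-sided, 0.0446 after adjustment over 10 pairs). With 6 libraries this p is the smallest the test can give.

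Ifngr2, the signalling chain of the type II receptor, was at 123, 114, 106, 119.9, 76.6 and 85.3 TPM (104 ± 19.02 TPM, chr16:91547072-91565623). Ifngr1, its ligand-binding chain, was at 118, 89.7, 88.9, 88.8, 48.05 and 68.1 TPM (83.5 ± 23.4 TPM, chr10:19591949-19610229). The ranges of these chains overlapped across libraries, but within each library Ifngr1 was the lower. The difference was -0.34 ± 0.20 in log2(TPM + 1), in 6 of 6 libraries (exact permutation, adjusted p = 0.0446). Without the pairing by library, an exact Mann-Whitney test gave an adjusted p of 0.267. Neither test can see an error in a gene's level that all 6 libraries share.

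Ifnar2, the chain of the type I receptor with high affinity for the ligand, was at 65.7, 54.2, 55.01, 30.7, 45.02 and 19.97 TPM (45.1 ± 16.99 TPM, chr16:91372783-91405589). Ifnar1, its partner, was at 37.6, 31.7, 25.5, 29.1, 21.7 and 25.7 TPM (28.6 ± 5.58 TPM, chr16:91485238-91507441). Ifnar2 was high in replicates 1 to 3 and lowest in replicate 6, whereas Ifnar1 had a narrower range. Ifnar1 was lower than Ifnar2 in 5 of 6 libraries, with a mean difference of -0.56 ± 0.57 in log2(TPM + 1), a difference that did not pass the test (exact permutation, p = 0.09375, adjusted p = 0.117). Ifngr1 exceeded Ifnar1 by 1.49 ± 0.23 in 6 of 6 libraries, and Ifnlr1 was below Ifnar1 by a mean difference of -2.76 ± 0.61 in 6 of 6 (exact permutation, adjusted p = 0.0446 for each). RNA of the type II binding chain was thus above that of Ifnar1, and RNA of the type III binding chain below it, within every library. Neither was tested against Ifnar2, and in replicate 5 Ifngr1 was at 48.05 TPM and Ifnar2 at 45.02 TPM.

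**Figure D3:**
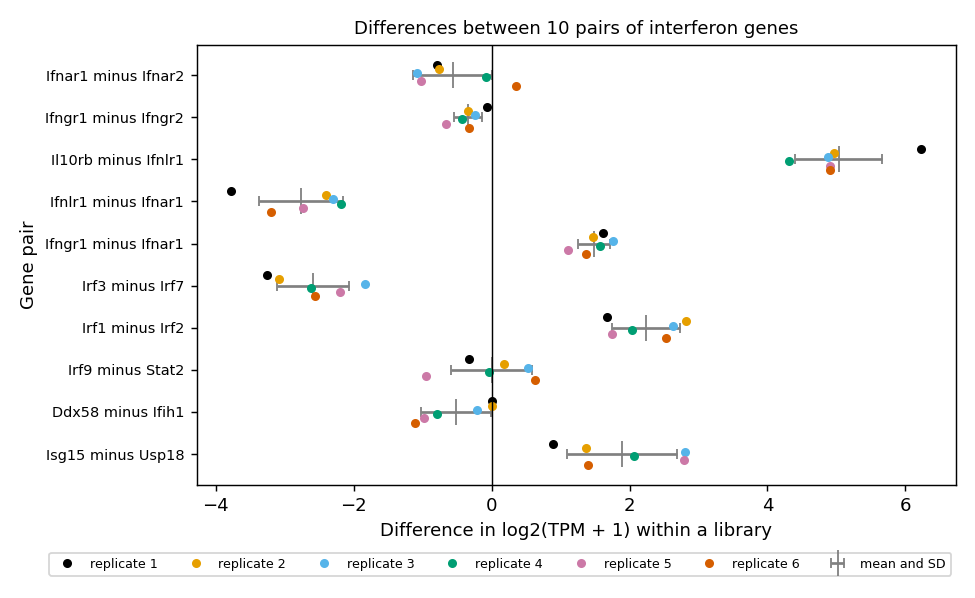
Within-library difference in log2(TPM + 1) between the genes of 10 pairs, with 1 point per library and the mean and SD in grey. All 6 points lie on 1 side of 0 for 7 pairs, among them Il10rb minus Ifnlr1 at a mean of 5.03, and points fall on both sides for the other 3.

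The regulatory factor genes were led by Irf7, the factor that amplifies type I interferon production. Irf7 was at 341, 289, 157, 253, 159 and 230.3 TPM (238 ± 72.6 TPM, chr7:141262706-141266481), the highest mean of all members. Its level ranked between the 94.1 and 97.3 percentile of the genes above 0 in each library. Irf3, the constitutive factor that starts the response after sensing, was at 34.9, 33.4, 43.1, 40.5, 33.7 and 38.4 TPM (37.3 ± 3.96 TPM, chr7:44997648-45002848). Irf7 was high in every library, with replicates 3 and 5 lowest, and never overlapped Irf3. Irf3 was below Irf7 by a mean difference of -2.59 ± 0.53 in log2(TPM + 1) in 6 of 6 libraries (exact permutation, adjusted p = 0.0446).

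Irf1, an activator that acts in type II responses and in basal antiviral resistance, had the lowest coefficient of variation of the members, 8.60%, at 144, 149, 139, 158, 122 and 148 TPM (143 ± 12.3 TPM, chr11:53770014-53778374). On the log2 scale its SD, 0.13, was next to that of Ifih1, 0.12. Irf2, which can compete with Irf1 at shared sites, was at 44.6, 20.3, 21.5, 37.7, 35.7 and 24.8 TPM (30.8 ± 9.96 TPM). No library of Irf2 reached the lowest of Irf1. The difference was 2.24 ± 0.49 in log2(TPM + 1) in 6 of 6 libraries, a TPM ratio of 3.23 to 7.35 (exact permutation, adjusted p = 0.0446).

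Stat2 and Irf9, partners in the complex that binds the response element, did not differ beyond the spread between libraries. Stat2 was at 44.97, 31.2, 22.6, 30.2, 42.1 and 27.5 TPM (33.1 ± 8.67 TPM, chr10:128270559-128292849). Irf9 was at 35.8, 35.5, 33, 29.4, 21.3 and 43.2 TPM (33.02 ± 7.31 TPM, chr14:55603571-55610030). Each was the higher one in 3 of 6 libraries, with a mean difference of 0.0032 ± 0.59 in log2(TPM + 1) (exact permutation, p = 1, adjusted p = 1), and single libraries differed by -0.95 to 0.63. Irf8, better known from myeloid and B cells, ranged most among the factors above 10 TPM, at 12.8, 17.5, 49.7, 11.6, 38.95 and 30.96 TPM (26.9 ± 15.5 TPM), with replicate 3 highest and replicates 1, 2 and 4 lowest. Irf5, another factor of immune cells, ranged from 0 to 7.48 TPM.

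Sensors of viral RNA and DNA were expressed in every library, with Ifih1 even between libraries and Dhx58 the most variable. Ifih1, which encodes the long double-stranded RNA sensor MDA5, was at 25.1, 25.1, 23.7, 24.99, 30.6 and 24.8 TPM (25.7 ± 2.43 TPM, chr2:62595798-62646255). Ddx58, which encodes the RNA sensor RIG-I, was at 25.1, 25.4, 20.3, 13.97, 14.9 and 10.96 TPM (18.4 ± 6.08 TPM, chr4:40203773-40239828). These sensors were level in replicates 1 and 2, and Ddx58 was lower in the other 4 libraries. The difference of Ddx58 from Ifih1, -0.51 ± 0.51 in log2(TPM + 1), did not pass the test (exact permutation, p = 0.125, adjusted p = 0.139). Zbp1, a sensor of Z-form nucleic acid, was at 35.8, 31.1, 39.9, 40, 47.9 and 24.8 TPM (36.6 ± 8 TPM). Dhx58, which encodes the regulator LGP2, was at 12.6, 12.4, 5.65, 13.8, 24.4 and 9.71 TPM (13.1 ± 6.26 TPM), lowest in replicate 3 and highest in replicate 5.

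Isg15, a ubiquitin-like modifier, was expressed in every library at 52.3, 48.4, 41.8, 24.9, 62.3 and 56.1 TPM (47.6 ± 13.1 TPM, chr4:156199424-156200818). Usp18, the protease that removes Isg15 from proteins and dampens type I receptor signalling, was at 27.7, 18.1, 5.10, 5.18, 8.15 and 20.6 TPM (14.1 ± 9.37 TPM, chr6:121245906-121270917). Usp18 was below 10 TPM in replicates 3 to 5 and higher in the others, while Isg15 was lowest in replicate 4. Isg15 exceeded Usp18 by 1.89 ± 0.80 in log2(TPM + 1) in 6 of 6 libraries, a TPM ratio of 1.89 to 8.19 (exact permutation, adjusted p = 0.0446). Trim25, an E3 ligase that acts in RIG-I signalling, was nearly constant at 32.2, 28.5, 30.8, 32.5, 30.5 and 24.2 TPM (29.8 ± 3.11 TPM).

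The Oas genes, whose products bind double-stranded RNA and, in the active enzymes, make the 2'-5' oligoadenylates that switch on RNase L, had the highest group median of the effector families, 6.30 ± 0.41 in log2(TPM + 1). Oasl2 was at 123, 105, 64.3, 59.9, 113 and 61.3 TPM (87.8 ± 28.98 TPM). Oas1a was at 90.02, 114, 76.1, 61.2, 116 and 62.03 TPM (86.5 ± 24.4 TPM, chr5:120896256-120907521). Both were higher in replicates 2 and 5 than in 3, 4 and 6. Oas2 was at 83.8, 109, 61.03, 43.4, 104 and 99.8 TPM (83.5 ± 26.3 TPM), and Oasl1, an inhibitor of Irf7 translation, at 43.5, 29.7, 30.03, 54.8, 54 and 39.6 TPM (41.96 ± 11.04 TPM). Oas1g, a close relative of Oas1a that is not a member, was at 35.4 ± 15.3 TPM, and reads shared between near-identical Oas1 genes may be divided between them, so the level of Oas1a is uncertain.

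In contrast to the Oas genes, the Ifit genes, whose products bind foreign RNA ends and block translation, were low. Ifit1 was at 10.1, 11.9, 10.8, 13.4, 10.1 and 3.78 TPM (10.02 ± 3.30 TPM, chr19:34640871-34650009). Ifit3, of the same family, was at 0.93, 2.06, 6.28, 2.50, 0.17 and 0.12 TPM (2.01 ± 2.31 TPM, chr19:34583531-34588731). Ifit2 was at 5.62, 0, 0, 0, 0 and 0.11 TPM (chr19:34550694-34576419). Ifit1 was above 10 TPM in 5 libraries, and Ifit2 was at 0 in 4 libraries. The means of Ifit2 and Ifit3 each rested on 1 library, falling from 0.955 to 0.022 TPM without replicate 1 and from 2.01 to 1.16 TPM without replicate 3.

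Among the other effectors, Ifi35 led, at 95.5, 101, 64.6, 85.7, 73.3 and 76.7 TPM (82.7 ± 13.8 TPM, chr11:101448407-101458698). Bst2, which encodes the virion tether tetherin, was at 58.2, 24.9, 35.5, 13.7, 29.8 and 66.7 TPM (38.1 ± 20.3 TPM). Bst2 was highest in replicates 6 and 1 and lowest in replicate 4. Eif2ak2, the double-stranded RNA kinase PKR, was at 39.2, 29.7, 16.1, 30.2, 28.8 and 32.6 TPM (29.4 ± 7.52 TPM). Parp14, an ADP-ribosyltransferase, was at 22.7, 17.7, 15.8, 13.4, 17.5 and 11.02 TPM (16.3 ± 4.03 TPM), and Xaf1, an antagonist of the apoptosis inhibitor XIAP, was at 16.7, 19.7, 20.4, 12.1, 23.7 and 22.4 TPM (19.2 ± 4.21 TPM). These 3 genes stayed above 10 TPM in every library. Rsad2, which encodes viperin, ranged from 2.97 to 13.8 TPM (8.91 ± 4.70 TPM). The dynamin-like GTPase genes Mx1 and Mx2 ranged from 0.33 to 9.91 TPM (5.71 ± 3.87 TPM) and from 3.83 to 11.6 TPM (7.32 ± 2.85 TPM). In C57BL/6 mice both Mx genes are known to carry disabling mutations. Isg20, a 3' exonuclease gene, was at 0 in replicates 3 to 5 and reached 3.82 TPM in replicate 6, without which its mean fell from 1.38 to 0.896 TPM.

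The guanylate-binding protein genes, which are classical targets of type II interferon, were low for the 3 members. Gbp3 ranged from 1.16 to 11.3 TPM (5.01 ± 3.53 TPM), Gbp7 from 1.29 to 7.20 TPM (3.96 ± 2.36 TPM) and Gbp2 from 0 to 4.50 TPM at 0, 2.84, 0.85, 2.16, 4.50 and 1.12 TPM in replicates 1 to 6 (1.91 ± 1.61 TPM). Their summed level, 6.20 to 18.2 TPM, was below the lowest sum of the Oas genes, 219 TPM, in every library. Of their relatives outside the list, Gbp8 was higher, at 15.5 ± 9.88 TPM (5.10 to 30.2 TPM), and Gbp6, Gbp9, Gbp4 and Gbp10 averaged 7.48, 6.73, 4.74 and 2.99 TPM, while Gbp1, Gbp5 and Gbp11 averaged below 1 TPM.

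Genes of the pathway outside the 40 were mostly detected, except for the interferon genes themselves. Of 20 interferon genes, 18 were in the table, 16 were at 0 in every library and none was above 0 in every library. Ifnl2 was at 1.01 TPM in replicate 3, 0.38 in replicate 4 and 0.44 in replicate 6, and Ifnk at 0.3 TPM in replicate 6. All 8 kinase, Stat and regulator genes of the signalling list were above 0 in every library, led by Jak1 (51.2 ± 18.4 TPM) and Stat3 (29.5 ± 3.95 TPM). Of 10 further sensors and adaptors 7 were above 0 in every library, led by Mavs (44.9 ± 11.1 TPM), the adaptor of RIG-I and MDA5, with Tlr7 at 0 throughout. Among 27 further interferon-stimulated genes 24 were above 0 in every library and 21 averaged at least 10 TPM, led by B2m (1999 ± 503 TPM), Lgals3bp (481 ± 179 TPM) and Psmb8 (186 ± 48.4 TPM).

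Members with a response element core had a lower median level than those without. The 14 members with the core had a median mean level of 22.1 TPM (1.91 to 86.5 TPM), of which 9 were at 10 TPM or more. The 18 with a window but no core had a median of 35.2 TPM (0.955 to 238 TPM), of which 14 were at 10 TPM or more. The sets also differ in role. Of the 14 with the core 12 are sensors or effectors, while those without include receptor genes, Irf7 and Irf1. The part of role in the levels was not tested. Among the genes shown above, Isg15, Oas1a and Bst2 were each above 10 TPM in every library, while Ifit3 and Gbp3 had means of 2.01 and 5.01 TPM. These are descriptions of a chosen list, with no test.

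Whether the members varied together across the libraries was examined next. The median correlation of the list was close to that of all genes. Over 741 pairs of the 39 members averaging at least 1 TPM, the median Pearson r of log2(TPM + 1) across the 6 libraries was 0.084, and 56.01% of pairs were above 0. Over all pairs of the 12032 genes at that level the median was 0.048, with 53.5% above 0. For genes averaging 10 TPM or more, the medians were 0.11 for 29 members and 0.095 for 6986 genes. The order of the medians turned without replicate 1, to 0.0017 for the members and 0.063 for all genes, and centred within replicates 1 to 3 and 4 to 6 they were 0.11 and 0.0093. The members' own spread was also near that of other genes, with a median SD over libraries of 0.47 in log2(TPM + 1) against 0.55 for all genes averaging 1 TPM or more. By library, 31 of 39 members were above their own mean in replicate 1 and 28 in replicate 2, against 16 to 20 in the others. The members' median deviation in replicate 1 was 0.26 in log2(TPM + 1), where that of all genes was 0.079. In replicate 2 these were 0.15 and 0.17. Replicate 1 was the highest library for 30.8% of members and 20.4% of all genes, and the lowest for 5.13% and 17.5%. All these values share library scaling and are given with no p.

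The median correlations of the role groups differed, and their order changed with the scaling. The 6 receptor genes had a median pairwise r of 0.47 with 15 of 15 pairs above 0, and without Ifnlr1 the 10 pairs ran from 0.41 to 0.94 (Ifngr1 and Ifngr2). After rescaling the libraries by median-of-ratios factors the receptor median was 0.33 with 13 of 15 pairs above 0. Leaving out single libraries gave 0.39 to 0.76, and the value rose over 1.5 times to 0.76 without replicate 1 and to 0.73 without replicate 5. Ifnar2, Il10rb, Ifnar1 and Ifngr2 are neighbours on chromosome 16, within 192841 bases at chr16:91372783-91565623. Their median pairwise r was 0.81, with pairs from 0.41 to 0.86. Ifngr1, on chromosome 10, had r = 0.94 with Ifngr2, 0.90 with Ifnar1, 0.82 with Il10rb and 0.42 with Ifnar2. The other neighbouring sets had a median of 0.65 for Oas1a and Oas2, 0.059 for the Oasl genes, 0.024 for the Ifit genes, -0.011 for the Mx genes and -0.11 for the Gbp genes. The Oas genes had a median r of 0.33 and the sensors of 0.28, while the factors (0.014), other effectors (0.12), Gbp genes (-0.11) and Isg15 pathway genes (-0.44) had lower medians. After the same rescaling the Oas genes had a median of 0.42 with 6 of 6 pairs above 0, above that of the receptors, and the values were 0.27 for the sensors, 0.17 for the factors, 0.16 for other effectors, -0.17 for the Gbp genes and -0.17 for the Isg15 pathway. The tuft cell markers, for comparison, had a median r of 0.77 with 78 of 78 pairs above 0.

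**Figure D4:**
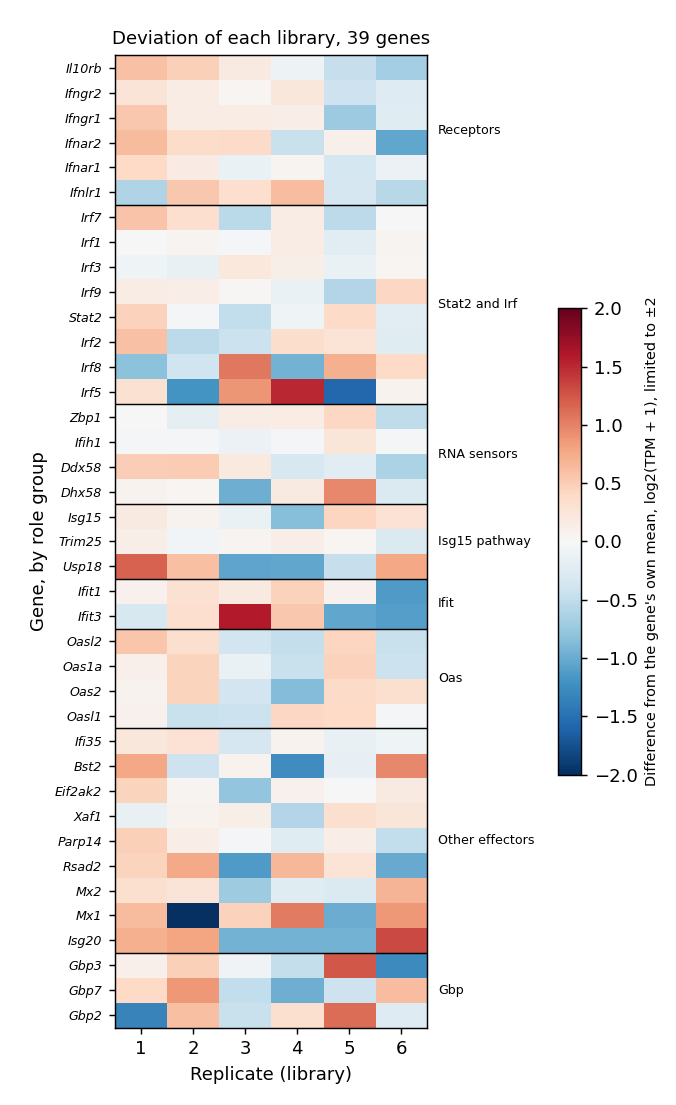
Deviation of each library from the gene's own mean in log2(TPM + 1) for the 39 members averaging at least 1 TPM, with replicates in columns, genes in rows by role group, and colour limited to 2 in either direction. The receptor rows other than Ifnlr1 lie above their own mean in replicate 1 and below it in replicate 6, and most other groups mix signs within most columns.

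The summed receptor level was 556, 489, 437, 405, 294 and 288 TPM in replicates 1 to 6. Replicates 1 to 3 were all above replicates 4 to 6 in this sum, and the same held for 3 of the 6 genes, Ifnar2, Ifngr1 and Il10rb. For Ifngr1 the gap was narrow, 88.93 TPM in replicate 3 against 88.78 TPM in replicate 4. The share of all genes with such a split was not computed. Of all genes averaging at least 1 TPM, 20.4%, 20.9% and 23.7% were highest in replicates 1, 2 and 3. In replicates 4, 5 and 6 the shares were 12.9%, 11.1% and 10.9%. The sets of replicates 1 to 3 and 4 to 6 also differ in Gm20594. This transcript was at 15588 to 21283 TPM in replicates 1 to 3 and at 51805 to 56441 TPM in 4 to 6. The labels give no batch. Centred within the sets, the receptor median was 0.40 with 10 of 15 pairs above 0, that of the Oas genes 0.59 with 5 of 6 and that of the sensors 0.64 with 6 of 6. The receptor genes also moved with measures of library make-up. The r of the 6 receptor genes with the median of the tuft cell markers ran from 0.21 to 0.89 and was above 0 for 6 of 6. With the summed leukocyte markers without Ptprc it ran from -0.91 to -0.36, with the level of Rn45s from -0.87 to -0.55 and with the goblet cell markers from -0.84 to -0.37, below 0 for 6 of 6 in each case. The medians over all genes averaging at least 1 TPM were also below 0, at -0.20, -0.23 and -0.16. With the other marker medians the receptor genes had mixed signs. Their r ran from -0.31 to 0.25 for Paneth cells, -0.25 to 0.067 for enterocytes and -0.87 to 0.21 for the full leukocyte list. The part of library make-up in the receptor pattern was not tested. In sorted bulk libraries, fewer cells of a type and less RNA per cell cannot be told apart.

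The r of the members with the tuft cell marker median ran in both directions, and the share above 0.9 was near that of all genes. The median r was 0.30 for the 39 members and 0.15 for all genes, and 27 of 39 were above 0, where 59.6% of genes were. Ifi35 (r = 0.91) passed 0.9, 1 of 39 members (2.56%) where 2.36% of genes did. After rescaling by median-of-ratios factors no member did, where 1.43% of genes did, and the median r was 0.20 for the members and 0.0063 for all genes. Ifnar1 (0.89), Irf7 (0.84) and Il10rb (0.82) followed, and Irf8 (-0.84), Xaf1 (-0.54) and Irf3 (-0.47) ran opposite. As a percentage of the summed tuft cell marker TPM, Irf7 was 2.83, 2.67, 2.19, 2.93, 2.21 and 3.21 in replicates 1 to 6, a 1.46-fold range where its TPM had a 2.18-fold range. For Irf8 the same ratio widened the range from 4.28-fold to 6.53-fold. Both genes were named for their r with these markers, so this contrast largely restates those r values. Markers of other cells also moved with single members. With the enterocyte marker median, Oasl1 (r = 0.96) passed 0.9, 1 of 39 members where 0.582% of genes did, and Irf2 had r = 0.88. Oasl1 also had r = 0.87 with the Paneth cell marker median, and the part of these cells in either gene was not tested.

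**Figure D5:**
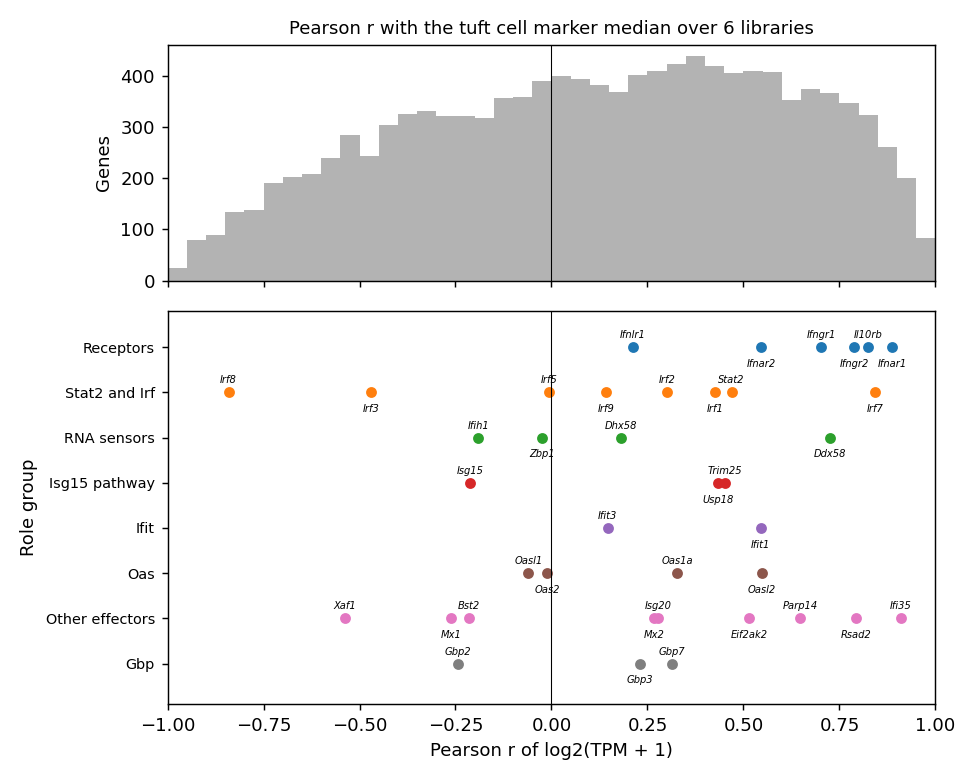
Pearson r across the 6 libraries between each gene and the median of the tuft cell markers, in log2(TPM + 1), for all genes averaging 1 TPM or more (histogram, top) and for the 39 members by role group (points, bottom). The members spread from Irf8 at -0.84 to Ifi35 at 0.91.

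None of the 6 pairs examined for correlation passed the test, by Pearson or Spearman, before or after adjustment (exact permutation over 720 pairings, adjusted over 6 relations). Ifit1 and Ifit3 had r = 0.60 (exact permutation p = 0.231, adjusted p = 0.64) and rho = 0.81 (p = 0.0722, adjusted p = 0.433), and r = 0.50 without replicates 4 and 6, the libraries farthest from the median of the first gene. Isg15 and Usp18 had r = 0.58 (exact permutation p = 0.215, adjusted p = 0.64) and rho = 0.54 (p = 0.297, adjusted p = 0.846), and r = 0.89 without replicates 4 and 5. Irf7 and Oasl2 had r = 0.30 (exact permutation p = 0.481, adjusted p = 0.64) and rho = 0.31 (p = 0.564, adjusted p = 0.846), and r = 0.94 without replicates 3 and 5. The last value rests on 4 libraries, and the pooled relation turned to r = -0.064 without replicate 1.

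Stat2 and Irf9, although partners, ran opposite at r = -0.41 (exact permutation p = 0.422, adjusted p = 0.64) with rho = -0.086 (p = 0.919, adjusted p = 1), and r = -0.041 without replicates 1 and 5. Irf1 and Gbp2 had r = -0.34 (exact permutation p = 0.533, adjusted p = 0.64) and rho = 0.029 (p = 1, adjusted p = 1), and r = 0.49 without replicates 4 and 5. Ddx58 and Ifih1 had r = -0.23 (exact permutation p = 0.817, adjusted p = 0.817) and rho = 0.37 (p = 0.497, adjusted p = 0.846), and r = -0.47 without replicates 2 and 6. Centred within replicates 1 to 3 and 4 to 6, r was -0.41 for Stat2 and Irf9, 0.58 for Isg15 and Usp18, 0.22 for Irf7 and Oasl2, 0.51 for Ifit1 and Ifit3, -0.34 for Irf1 and Gbp2 and 0.69 for Ddx58 and Ifih1, the only pair whose sign turned.

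The genes most like the interferon-stimulated members were sought among 9037 genes outside all interferon lists averaging at least 5 TPM. The median log2(TPM + 1) of the 25 sensor and effector members was 4.70, 4.37, 4.10, 3.88, 4.63 and 4.43 in replicates 1 to 6, highest in replicates 1 and 5 and lowest in replicate 4. The highest Pearson r with it over the 6 libraries were those of Slc35a5, Rnf2, Zc3h10, 2510049J12Rik and Adar, each at 0.98, and 43 candidates (0.476%) passed 0.9. Adar, which edits adenosine to inosine in double-stranded RNA and has an interferon-inducible isoform, was at 22.8 ± 4.51 TPM. These genes were picked for their r over 6 libraries among all candidates, and whether the list is enriched for interferon genes was not tested.

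In 39 tests of a library standing apart, 2 members (5.13%) had an outlying value, Ifih1 and Ifit1, where 9.04% of the 12032 genes averaging 1 TPM or more did.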

How the data were processed

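RNA of GFP+ tuft cells from the ileum was measured in 6 libraries prepared, per the methods, by a modified SMART-Seq2 protocol with Nextera XT. The labels name 3' polyA and 10X preparations as well. The authors aligned reads with Bowtie to the UCSC mm10 transcriptome and deposited RSEM estimates of each gene as TPM, which divides reads that align to several transcripts, so values of close paralogs are uncertain. TopHat and DESeq2 are also named in the submitters' processing notes. The study's methods name DESeq2 for differential expression, and it was not used here. TPM keeps no depth, so no interval, detection limit or count test was computed. Rn45s and other abundant transcripts take a share that differs between libraries and lowers all other values.

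Columns were matched to replicates by number, and no 2 libraries were identical (Spearman 0.915 to 0.937 between libraries). The labels call the samples mouse replicates. Whether a library holds 1 animal or several is not given, so p-values measure the spread between these libraries. They do not cover errors in a gene's level that all libraries share. Values were tested as log2(TPM + 1), whose pseudocount shrinks differences of low genes. Pairs of genes were compared within libraries by exact permutation of signs, two-sided (64 assignments), and correlations by exact permutation (720 pairings), with Benjamini-Hochberg adjustment over 10 and 6 tests and a threshold of 0.05. Summaries used genes averaging 1 TPM or more, except where another set is named. The members and lists were chosen with earlier results of these data known, so counts over them are descriptions. The genes named were all 40 members, each with its value in every library where its mean was at least 10 TPM or it was in a tested pair, the 3 most abundant genes of each further list (some genes of the lists are not reported here), any interferon gene above 0, and the 5 genes most like the interferon-stimulated median. Isg20, Ifit2 and the genes with the strongest correlations with tuft cell markers were singled out after values were seen. Gene positions came from GENCODE M21 on GRCm38, matched by symbol, and promoter windows from RefSeq on GRCm38.p6 (32 of 40 members had one). The authors' gene models were not used here.

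Alternatives were a pseudocount of 0.1, another minimum level, median-of-ratios rescaling, rescaling without Rn45s, the exact Mann-Whitney test, leaving out each library and centring within replicates 1 to 3 and 4 to 6. The centring, the alternatives for member means and those for correlations within role groups were chosen after seeing the data. Tables were handled in pandas 2.3.3 under Python 3.11.15, tests were run with scipy 1.17.1 and numpy 2.4.6, and matplotlib 3.10.9 drew the figures.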

Additional observations from a re-analysis of the deposited data

Results flagged for a closer look

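In 2 genes a single library stood apart from the other 5 by Dixon's test, in which the gap to the next library divided by the whole range is set against its 95% critical value for 6 samples. Chance alone marks about 1 in 20 groups. Ifih1 was highest in replicate 5, at 30.6 TPM against 25.1 TPM in the next library, a ratio of 0.786, and its mean was 24.7 TPM without that library. Ifit1 was lowest in replicate 6, at 3.78 TPM against 10.1 TPM in the next library, a ratio of 0.657, and its mean was 11.3 TPM without it. Leukocyte markers without Ptprc summed to 225 TPM in replicate 5 and 277 TPM in replicate 6, the highest of the libraries, and their part in either value was not tested.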

How the results depend on the processing

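Of the 10 differences between paired genes, Ifngr1 minus Ifngr2 lost its call by the exact Mann-Whitney test (-0.34, adjusted p = 0.267), which drops the pairing by library, and in the other 49 combinations of a pair and a full-set alternative the direction and the side of the threshold were kept. With 5 libraries the sign-flip test cannot go below 0.0625, so leaving out a library gives values with no test. Irf9 minus Stat2 then ran from -0.12 to 0.19, and it was the only difference to change sign. Among the correlations, r of Irf1 and Gbp2 turned to 0.042 with median-of-ratios rescaling, and r of Ddx58 and Ifih1 to 0.69 (adjusted p = 0.611) when centred within sets. Leaving out single libraries, r ran from -0.53 to 0.59 for Irf1 and Gbp2, from -0.47 to 0.011 for Ddx58 and Ifih1 and from -0.72 to 0.045 for Stat2 and Irf9, each turning positive without replicate 5, and from -0.064 to 0.74 for Irf7 and Oasl2. The cause was not tested. The members' median pairwise r was 0.0017 without replicate 1 and up to 0.12 when other libraries were left out. Rescaling without Rn45s raises every value by construction and moved 25 of 40 member means by more than their SD. The median deviation of all genes ran from -0.12 to 0.17 (log2) between libraries.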

Other observations

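Further interferon-stimulated genes outside the 40 moved with the tuft cell marker median in opposite directions across the 6 libraries. Lgals3bp (r = 0.87), Samd9l (0.86) and B2m (0.74), the light chain of MHC class I, were higher where tuft cell markers were higher. Ly6e (-0.96), the immunoproteasome subunit Psmb8 (-0.91), Ifitm3 (-0.85), Parp9 (-0.81) and Ifi47 (-0.76) were lower there. Ifitm3 was at 11.8, 11.6, 92.4, 31.5, 47.3 and 32.03 TPM in replicates 1 to 6, and Ly6e at 13.8, 13.3, 32.4, 14.8, 29.95 and 30.2 TPM. For both genes replicates 1 and 2, which had the highest tuft cell marker levels, were the lowest. In the signalling list, Jak2 had r = 0.98 with the tuft cell marker median. These genes were picked for their values, the points share library scaling, and no test was made.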
